A study of Rattus norvegicus with 200 samples.

Results

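The oligodendrocyte precursor genes described here are 6 of the 20361 genes in the deposited count table, found by their symbols: Cspg4, Pdgfra, Vcan, Gpr17, Olig1 and Olig2. All 6 passed the filter on low counts. They were measured by bulk RNA sequencing in 200 brain libraries from wild-type adult male Wistar rats, an outbred stock. The libraries formed 6 groups of diet and feeding schedule: HFD light-feeding (n = 33), HFD dark-feeding (n = 33), HFD ad libitum (n = 34), chow light-feeding (n = 33), chow dark-feeding (n = 33) and chow ad libitum (n = 34). HFD is a high-fat diet, ad libitum feeding leaves food present throughout, and the restricted schedules gave it in the light or the dark phase. Each group was sampled at 6 Zeitgeber times (ZT, hours from lights on), ZT2, ZT6, ZT10, ZT14, ZT18 and ZT22, and each combination of group and time held 5 to 7 libraries. The labels name no donor animal for a library, so p-values describe variation among libraries, part of which may be technical. The study's title asks what time-restricted feeding does to microglia, the brain's resident macrophages, in diet-induced obese rats.

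Oligodendrocyte precursor cells are the dividing glia of the adult brain from which myelin-forming oligodendrocytes arise. They are recognised by the proteoglycan NG2, encoded by Cspg4, and by the receptor for platelet-derived growth factor A, encoded by Pdgfra, whose signal keeps them dividing. Pdgfra and Cspg4 are lost as the cells differentiate. Gpr17, a receptor that holds back maturation, marks late precursors and newly committed cells, and the transcription factors Olig1 and Olig2 stay on in mature oligodendrocytes. Vcan encodes versican, a matrix proteoglycan made by precursors and by other cells. Pericytes also carry Cspg4, and meningeal fibroblasts also carry Pdgfra.

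All libraries were labelled as microglia, but the markers of other cells were abundant. Over all 200 libraries, the summed level of 13 genes of mature oligodendrocytes averaged 16514 CPM (counts scaled to the size of the library), against 893 CPM for the microglia list. No member was at 0 in any library. In these bulk libraries, fewer cells of a type and less RNA per cell cannot be told apart. Total counts ran from 3.78 M to 11.6 M per library. At that depth the lowest count of any member in any library was 98, for Gpr17. For 6 libraries the median correlation with the other libraries was far below the rest. They were 1 HFD ad libitum, 1 chow light-feeding, 3 chow dark-feeding and 1 chow ad libitum library. Leaving them out moved the count of members called by over 1.5 times in the diet by light-feeding interaction and in no other comparison. The titles number the libraries in 2 separate series, 1 for each diet, so diet cannot be told apart from whatever else set the 2 series apart.

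On the scale that corrects for gene length (FPKM), Olig1 had the highest level of the 6 genes, with a mean of 54.5 ± 10.2 FPKM (SD, n = 200). Olig2 followed with a level of 24.6 ± 4.96 FPKM. Vcan had a level of 21.3 ± 2.38 FPKM. The next levels, 17.2 ± 5.00 FPKM for Gpr17 and 16.4 ± 3.22 FPKM for Pdgfra, were closer to each other than their spread over libraries. Cspg4 had the lowest level, 6.11 ± 1.14 FPKM. Olig2 and Vcan, and likewise Vcan and Gpr17, differed by less than the SD of the more variable gene of each pair. The highest Cspg4 level in any library was 9.56 FPKM, and the lowest Pdgfra level was 9.25 FPKM.

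Gpr17, Pdgfra and Vcan rose under HFD with dark-feeding and with light-feeding, Cspg4 rose with dark-feeding, and no difference in Olig1 or Olig2 passed the test on any schedule. With dark-feeding 4 of 6 members rose and 0 fell, where 46% of the 14393 genes tested were called at an adjusted p under 0.05 in edgeR's quasi-likelihood test, 22.7% higher and 23.3% lower. With light-feeding 3 of 6 rose and 0 fell, where 50.5% of all genes were called, 24.6% higher and 26% lower. The median log2 fold change of the 6 members was 0.19 with dark-feeding and 0.10 with light-feeding, against -0.01 over all genes in both comparisons.

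Gpr17 had a lowest, median and highest level of 29.0, 37.8 and 56.8 CPM in HFD dark-feeding libraries, against 14.0, 24.0 and 49.2 CPM in chow dark-feeding libraries. The groups overlapped, yet 29 of 33 HFD libraries lay above the median of the chow libraries of their own time. The log2 fold change was 0.49 (SE 0.080, adjusted p = 1.26e-06 in edgeR), which is 1.41-fold. With light-feeding the levels were 30.5, 39.8 and 51.1 CPM in HFD libraries, against 15.8, 27.7 and 58.9 CPM in chow libraries. The highest single value was that of a chow library, while most chow light-feeding libraries lay below the lowest HFD light-feeding library. That log2 fold change was 0.48 (SE 0.070, adjusted p = 1.05e-07 in edgeR).

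Pdgfra had a lowest, median and highest level of 91.7, 114 and 148 CPM in HFD dark-feeding libraries, against 62.4, 86.7 and 142 CPM in chow dark-feeding libraries. In HFD light-feeding libraries the levels were 84.7, 114 and 172 CPM, against 55.7, 87.6 and 147 CPM in chow light-feeding libraries. Both pairs of groups overlapped, and 28 and 29 of 33 HFD libraries lay above the chow median of their time. The log2 fold change was 0.36 with dark-feeding (SE 0.054, adjusted p = 3e-07 in edgeR) and 0.36 with light-feeding (SE 0.061, adjusted p = 1.6e-06). Leaving out any 1 time did not end the Gpr17 or Pdgfra call on either restricted schedule, nor did any other alternative run for these comparisons.

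Vcan averaged 161 ± 10.5 CPM in HFD dark-feeding libraries and 136 ± 17.4 CPM in chow dark-feeding libraries (SD, n = 33 each). All 33 of the HFD libraries lay above the chow median of their own time, although the ranges of the whole groups overlapped. The log2 fold change was 0.24 (SE 0.034, adjusted p = 9.3e-08 in edgeR). With light-feeding Vcan averaged 148 ± 10.5 CPM in HFD libraries and 136 ± 13.1 CPM in chow libraries, a log2 fold change of 0.12 (SE 0.027, adjusted p = 0.000117). Cspg4 averaged 50.8 ± 6.92 CPM in HFD dark-feeding libraries and 47.2 ± 9.15 CPM in chow dark-feeding libraries, a log2 fold change of 0.13 (SE 0.051, adjusted p = 0.0278). Its call held in 7 of 15 alternatives and was lost without ZT2 (adjusted p = 0.223), ZT14 (0.0825) or ZT22 (0.184).

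Olig1 and Olig2, the transcription factors, did not pass. Olig1 averaged 100 ± 16.4 CPM in HFD dark-feeding libraries and 102 ± 17.5 CPM in chow dark-feeding libraries, with an interval of the log2 fold change from -0.14 to 0.09. Olig2 averaged 59.0 ± 12.9 CPM in HFD dark-feeding libraries and 55.7 ± 10.5 CPM in chow dark-feeding libraries, with an interval from -0.05 to 0.21. With light-feeding the interval ran from -0.08 to 0.14 for Olig1 and from -0.05 to 0.19 for Olig2. These intervals are approximate 95% intervals, 2 SE to each side.

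**Figure D1:**
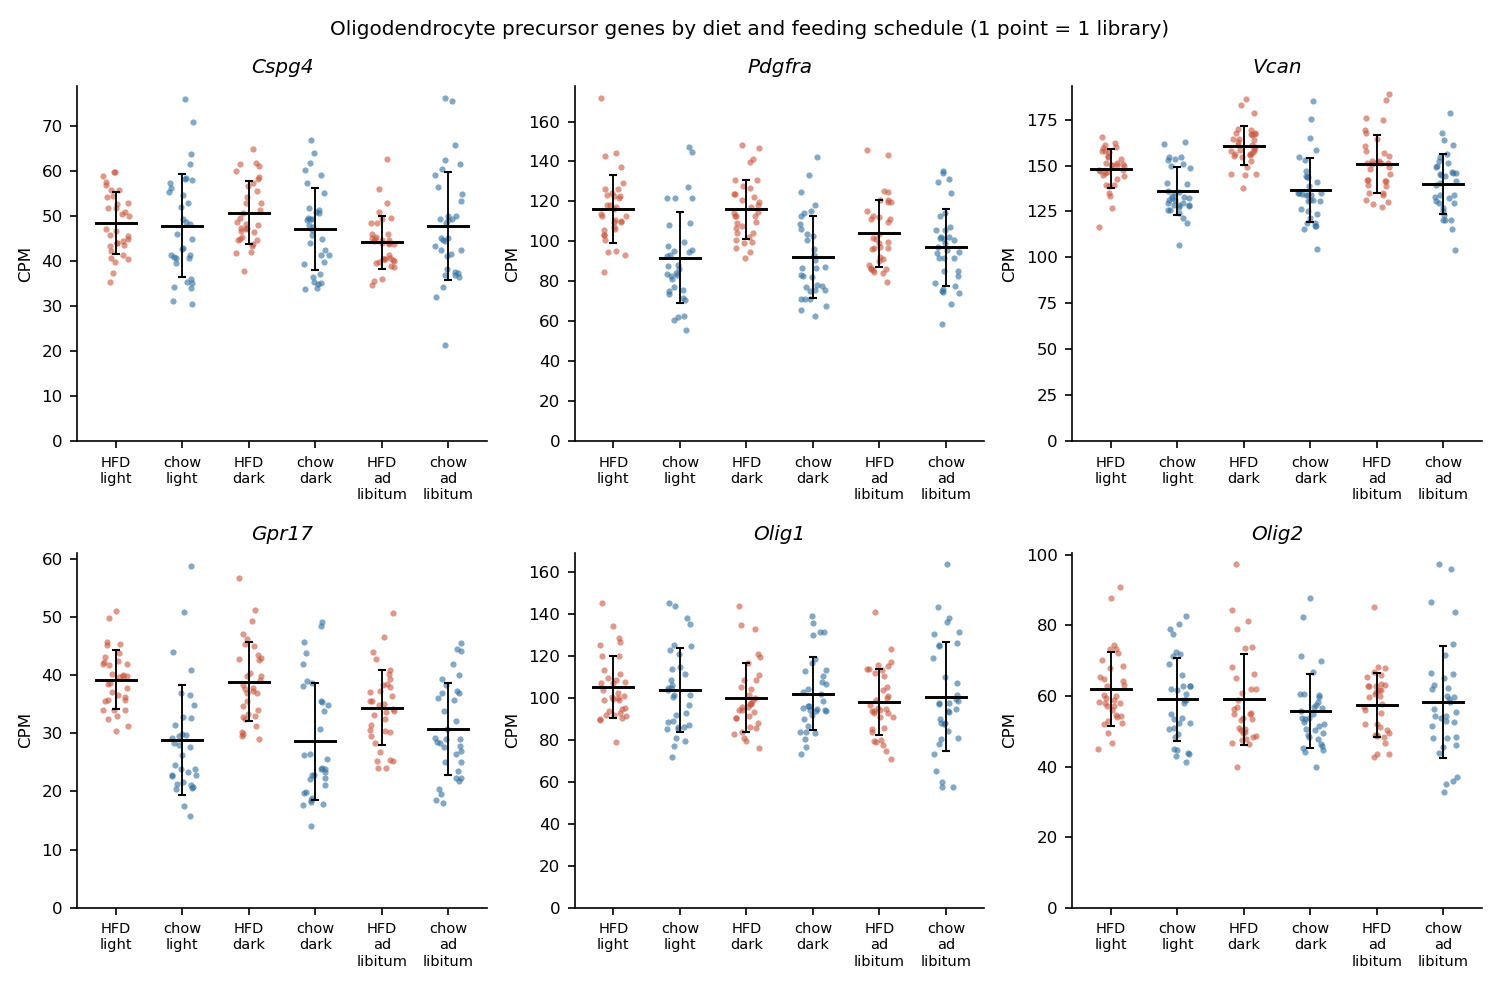
Level in CPM (vertical axis, from 0) of each gene in every library, by diet and feeding schedule, with HFD in red left of chow in blue; each point is 1 library, and black lines give the mean and SD. Gpr17 and Pdgfra lie higher in HFD than in chow libraries on both restricted schedules, with overlapping ranges, while Olig1 and Olig2 do not separate by diet.

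Gene length moved with the diet comparisons. Length was inferred from each gene's expected count relative to its FPKM and the library's total count, not read from an annotation. On this scale Cspg4, Pdgfra and Vcan belong to the longest 10% of genes, at 3.29, 2.64 and 2.89 times the median length. Gpr17 lies below the median at 0.817 times. The median log2 fold change of the longest 10% was 0.12 with dark-feeding and 0.09 with light-feeding. With offsets for length, an alternative chosen after seeing the data, the Cspg4 log2 fold change with dark-feeding was 0.01 (adjusted p = 0.888 in edgeR) and that of Vcan with light-feeding 0.04 (adjusted p = 0.102). Those of Gpr17 were 0.51 with dark-feeding and 0.49 with light-feeding, and those of Pdgfra 0.26 and 0.29, all past the threshold.

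With ad libitum feeding 1 of 6 members rose under HFD and 0 fell, where 20.3% of all genes were called, 9.48% higher and 10.8% lower. Vcan averaged 151 ± 15.7 CPM in HFD ad libitum libraries and 140 ± 16.1 CPM in chow ad libitum libraries (SD, n = 34 each), a log2 fold change of 0.10 (SE 0.038, adjusted p = 0.0451 in edgeR). This call held in 8 of 15 alternatives and was lost without ZT2 (adjusted p = 0.0778), ZT14 (0.3) or ZT18 (0.225), and with length offsets (0.375). Gpr17 averaged 34.4 ± 6.49 CPM in HFD ad libitum libraries and 30.7 ± 7.91 CPM in chow ad libitum libraries, with a log2 fold change of 0.18 (adjusted p = 0.0673). For Pdgfra the log2 fold change was 0.10 (adjusted p = 0.211), and for Cspg4 it was -0.12 (adjusted p = 0.215). For Olig1 and Olig2 it was -0.04 and -0.02.

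Other genes of the lineage were counted in the same comparisons, where 9.48%, 22.7% and 24.6% of all genes rose under HFD with ad libitum feeding, dark-feeding and light-feeding and 10.8%, 23.3% and 26% fell. Among 17 tested precursor genes outside the 6, 5 rose under HFD with ad libitum feeding, 10 with dark-feeding and 9 with light-feeding, and 0 fell on any schedule. Tnr, which encodes the matrix protein tenascin-R, had a log2 fold change of 0.22 with ad libitum feeding, 0.38 with dark-feeding and 0.32 with light-feeding, and rose each time. Nxph1, which encodes a secreted ligand of neurexins, rose with light-feeding (0.37), and Pcdh15, a protocadherin gene, with dark-feeding (0.39). Of 13 mature oligodendrocyte genes, 3, 8 and 8 rose on the ad libitum, dark and light schedules and 0 fell. Of 14 genes of newly formed oligodendrocytes, 1, 4 and 6 rose and 0, 1 and 2 fell.

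Lists of signals and inhibitors gave mixed counts. Of 4 tested genes of the PDGF ligands and other receptors, 0 passed with ad libitum feeding and 3 fell on each restricted schedule. Pdgfrb, the receptor gene of pericytes, had a log2 fold change of -0.74 with dark-feeding and -0.90 with light-feeding, and Pdgfa, the ligand of the receptor that Pdgfra encodes, -0.11 and -0.14. Of 10 tested inhibitors of differentiation, 1 rose and 0 fell with ad libitum feeding, 1 rose and 3 fell with dark-feeding, and 1 rose and 5 fell with light-feeding, among them Id4, an inhibitor of basic helix-loop-helix factors, at -0.68, while Gpr37, an orphan receptor of oligodendrocytes, rose (0.31 with light-feeding). Of 11 proliferation genes, 0 passed with ad libitum feeding, 1 fell with dark-feeding, and 1 rose and 1 fell with light-feeding. Of 11 tested genes of the perineuronal and hyaluronan matrix, to which versican belongs, 0 rose and 1 fell with ad libitum feeding, 3 rose and 2 fell with dark-feeding, and 1 rose and 2 fell with light-feeding.

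Markers of other cells moved with diet too. All 10 meningeal fibroblast genes fell under HFD on each restricted schedule, and 7 and 8 of 8 tested genes of pericytes and smooth muscle fell with dark-feeding and light-feeding. Of 12 astrocyte genes 11 fell and 1 rose on each restricted schedule, and of 11 tested microglia genes 7 and 6 fell. The summed astrocyte level averaged 728 ± 88.2 CPM in HFD dark-feeding libraries and 930 ± 197 CPM in chow dark-feeding libraries. The summed mature oligodendrocyte level averaged 17325 ± 2832 CPM in HFD dark-feeding libraries and 15377 ± 2801 CPM in chow dark-feeding libraries. The summed level of the fibroblast list ran from 32.5 to 97.7 CPM in HFD dark-feeding libraries, against 29.7 to 177 CPM in chow dark-feeding libraries, and from 30.6 to 96.0 CPM in HFD light-feeding libraries, against 57.2 to 205 CPM in chow light-feeding libraries. The pericyte list ran from 35.6 to 62.8 CPM in HFD dark-feeding libraries, against 32.3 to 127 CPM in chow dark-feeding libraries. The pericyte markers Rgs5, Kcnj8 and Higd1b were at 0 in 36, 6 and 32 of 200 libraries and did not pass the filter. Of the 8 tested genes of that list, Acta2 was at 0 in 2 libraries and the others were at 0 in no library. The mean levels of these 8 genes ran from 2.44 CPM for Anpep to 17.0 CPM for Myh11. The part of these other cells in the levels of the 6 genes was not tested.

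Differences between feeding schedules passed for some members within HFD and for none within chow. With chow, 0 of 6 members passed in dark-feeding against ad libitum (0% of all genes), in light-feeding against ad libitum (1.67%, with 0.528% higher and 1.15% lower) or in light-feeding against dark-feeding (0%). Over all genes, edgeR called 0 in the first and last of these comparisons, with 1714 and 616 at an unadjusted p under 0.05, and DESeq2 called 1 and 0. Among the members, neither an unadjusted p under 0.05 (0 of 6) nor a DESeq2 call (0 of 6) occurred in any of the 3. Gpr17 averaged 28.8 ± 9.45 CPM in chow light-feeding libraries and 28.6 ± 10.0 CPM in chow dark-feeding libraries, against 30.7 ± 7.91 CPM in chow ad libitum libraries. Pdgfra averaged 91.9 ± 23.0 CPM in chow light-feeding libraries and 92.1 ± 20.5 CPM in chow dark-feeding libraries, against 97.1 ± 19.3 CPM in chow ad libitum libraries. The interval for Gpr17 ran from -0.32 to 0.04 on the log2 scale for dark-feeding against ad libitum.

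Within HFD, 3 of 6 members rose with dark-feeding against ad libitum, where 4.68% of all genes were called, 1.72% higher and 2.97% lower. Likewise 3 of 6 rose with light-feeding against ad libitum, where 10.6% were called, 5.65% higher and 4.94% lower. Cspg4 averaged 50.8 ± 6.92 CPM in HFD dark-feeding libraries and 44.2 ± 5.87 CPM in HFD ad libitum libraries, a log2 fold change of 0.21 (SE 0.046, adjusted p = 0.00482 in edgeR). In HFD light-feeding libraries it averaged 48.5 ± 6.83 CPM, 0.14 above ad libitum on the log2 scale (adjusted p = 0.0473). Pdgfra averaged 116 ± 16.9 CPM in HFD light-feeding libraries and 116 ± 14.8 CPM in HFD dark-feeding libraries, against 104 ± 16.7 CPM in HFD ad libitum libraries, with log2 fold changes of 0.16 for dark-feeding (adjusted p = 0.0371) and 0.17 for light-feeding (adjusted p = 0.0258). Gpr17 rose with light-feeding (log2 fold change 0.20, adjusted p = 0.012), and its value of 0.18 with dark-feeding did not pass (adjusted p = 0.0776). Vcan rose with dark-feeding (0.10, adjusted p = 0.0351) and did not pass with light-feeding (-0.02). The direct comparison of light-feeding with dark-feeding called Vcan alone, 1 of 6 members at -0.12 (adjusted p = 0.0396), where 0.0834% of all genes were called, 0.0486% higher and 0.0347% lower. Only 3 of 33 HFD light-feeding libraries lay above the HFD dark-feeding median of their time. Single times decided several of these calls. For dark-feeding against ad libitum Pdgfra had an adjusted p of 0.182 without ZT2, 0.126 without ZT6, 0.118 without ZT14 and 0.139 without ZT22, and Vcan had values from 0.105 to 0.167 without ZT2, ZT6, ZT10 or ZT22, while Cspg4 passed without any 1 time. For light-feeding against ad libitum Gpr17 had 0.0583 without ZT6 and 0.131 without ZT14, Pdgfra had values from 0.0595 to 0.187 without ZT2, ZT6, ZT14 or ZT22, and Cspg4 from 0.0853 to 0.381 without the same 4 times. Vcan in light-feeding against dark-feeding had values from 0.0528 to 0.191 without ZT6, ZT10, ZT14 or ZT22.

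Other cells' markers and the position of the libraries in the HFD series moved with schedule. Of the 10 fibroblast genes 4 fell with dark-feeding and 4 with light-feeding against ad libitum, of 8 pericyte genes 4 and 6 fell, of 12 astrocyte genes 7 and 5 fell, and of 13 mature oligodendrocyte genes 0 passed in either. Title numbers from 1 to 50 were held by none of the light-feeding and 3 of 33 dark-feeding libraries, against 28 of 34 ad libitum libraries. Among libraries numbered 101 to 150, the median Pdgfra level was 112 CPM in HFD light-feeding (n = 16) and 119 CPM in HFD dark-feeding (n = 10), against 125 CPM in HFD ad libitum (n = 5). The median Gpr17 level was 37.4 CPM in HFD light-feeding and 35.1 CPM in HFD dark-feeding, against 37.3 CPM in HFD ad libitum. These 5 ad libitum libraries were all from ZT10 or ZT18, the times of that group's highest Pdgfra means (108 and 120 CPM). The restricted libraries of this band covered other times as well, so its medians are not matched for time. In the 28 ad libitum libraries numbered 1 to 50 the medians were 97.0 CPM for Pdgfra and 33.4 CPM for Gpr17. With a smooth curve of title number in the model, the light-feeding differences turned negative, at -0.15 for Pdgfra, -0.08 for Gpr17 and -0.06 for Cspg4, and 0 of 6 members passed for either schedule. For dark-feeding the values in that model were 0.17 for Cspg4 and 0.10 for Vcan, about as large as without the curve, 0.12 for Gpr17 and 0.01 for Pdgfra. With runs of neighbouring title numbers in place of libraries, 12 in each HFD group, 0 of 6 passed as well. The shares of all genes that passed with the curve or over runs are not given here.

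**Figure D2:**
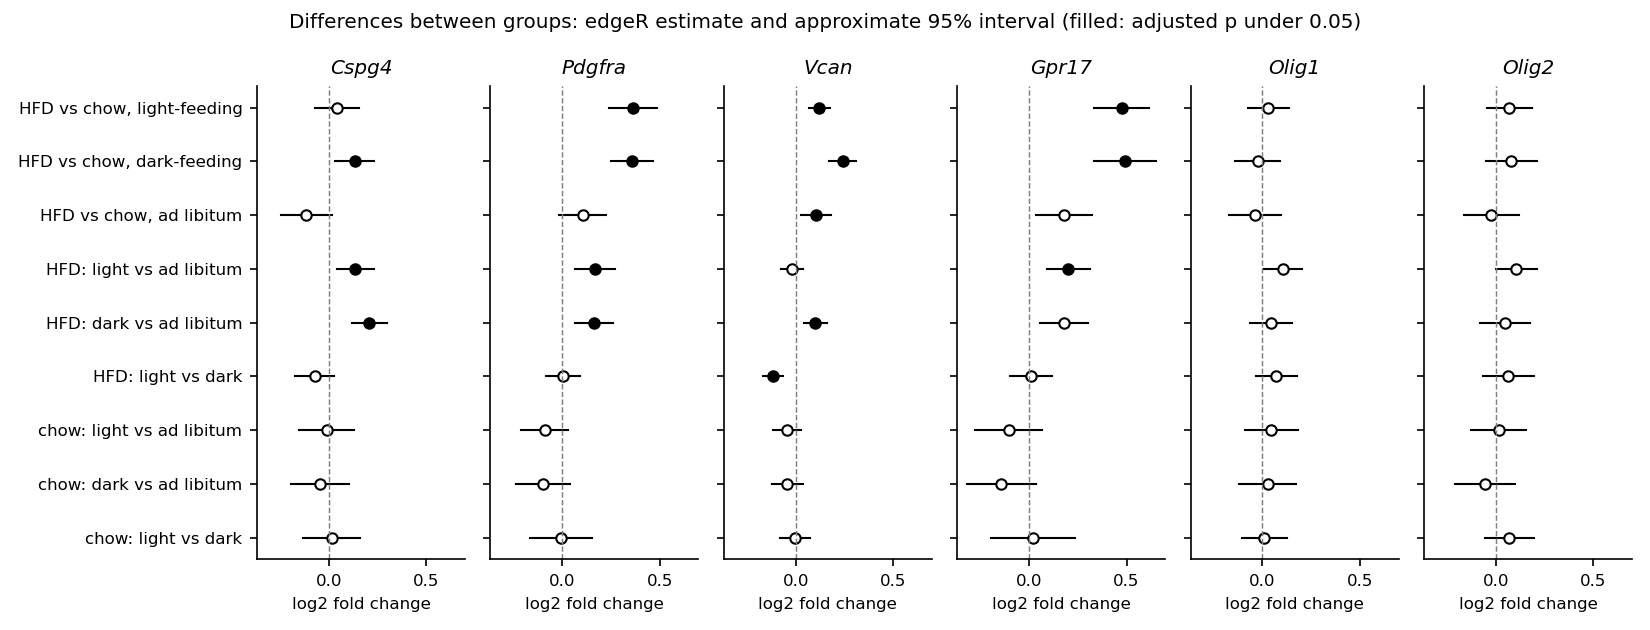
Log2 fold change (horizontal axis) of each gene in 9 comparisons of 2 groups (rows), with lines for the approximate 95% interval of 2 SE to each side; filled points passed an adjusted p under 0.05. The values for Gpr17 reach 0.49 and 0.48 for HFD against chow on the restricted schedules, and the 3 chow rows hold no filled point.

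Whether the effect of diet itself changed with schedule was tested by interaction. For dark-feeding 0 of 6 members passed (0.862% of all genes did, 0.222% with a positive and 0.639% with a negative value), with the lowest adjusted p at 0.135, for Pdgfra. By unadjusted p, 4 of 6 passed, and 0 passed with DESeq2. The shares of all genes by either criterion are not given here, so these counts cannot be weighed against them. For light-feeding 1 of 6 passed with a positive value (9.58% of all genes passed, 5.75% with a positive and 3.84% with a negative value): the diet difference in Pdgfra was larger by 0.25 on the log2 scale than with ad libitum feeding (SE 0.086, adjusted p = 0.0426 in edgeR). The value for Gpr17 was 0.30 (adjusted p = 0.0529). The Pdgfra call held in 5 of 15 alternatives and was lost without ZT2 (adjusted p = 0.315), ZT6 (0.243), ZT10 (0.0997) or ZT22 (0.0696), over runs (0.16 on the log2 scale, adjusted p = 0.842) and with length offsets (0.23, adjusted p = 0.0604). Gpr17 passed without ZT18 (0.000974) or ZT22 (0.0301), and 2 of 6 members passed without the 6 libraries that stand apart. For dark-feeding Pdgfra passed without ZT10 (0.0265).

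Over the day, members changed in the chow groups with restricted feeding. A 24 h rhythm passed for 6 of 6 members in chow light-feeding, where 20.2% of all genes passed, and for 3 of 6 in chow dark-feeding, where 22.6% passed. Counts were also summed over runs of libraries with adjoining title numbers, 13 in each group in place of 33 libraries. Over these runs, for which the share of all genes is not given here, 0 of 6 passed in either group, while the fitted changes stayed about as large. With chow light-feeding these changes over runs were 0.94 for Gpr17, 0.78 for Pdgfra and 0.70 for Cspg4 (adjusted p = 0.286, 0.286 and 0.355 in edgeR), and with chow dark-feeding 0.81, 0.52 and 0.53 (adjusted p = 0.247, 0.179 and 0.105). In chow ad libitum it passed for 0 of 6 (4.48% of all genes), with 3 of 6 at an unadjusted p under 0.05 and 0 of 6 with DESeq2. In HFD ad libitum it passed for 1 of 6 (19.5%), in HFD dark-feeding for 0 of 6 (27.3%) and in HFD light-feeding for 0 of 6 (0.868%). In these last groups an unadjusted p under 0.05 was found for 0 and 2 of 6, and a DESeq2 call for 0 in each. The percentages refer to adjusted edgeR calls. Shares of all genes by unadjusted p or by DESeq2 are not given here.

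In chow light-feeding Gpr17 averaged 24.3 ± 2.69, 19.8 ± 3.23, 23.7 ± 3.25, 26.9 ± 4.86, 35.8 ± 7.99 and 39.9 ± 11.0 CPM at ZT2, ZT6, ZT10, ZT14, ZT18 and ZT22 (SD, n = 5 or 6). The fitted peak lay at ZT19.5, with a peak-to-trough change of 0.93 on the log2 scale (adjusted p = 0.000183 in edgeR). Pdgfra peaked at ZT19.6 with a change of 0.75 (adjusted p = 0.000154), and Cspg4 at ZT20.3 with 0.68 (adjusted p = 0.000383). Olig2, Olig1 and Vcan had smaller changes of 0.49, 0.44 and 0.29. All 6 exceeded the median of 0.21 over all genes.

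In chow dark-feeding the fitted peaks lay at other times. Gpr17 averaged 27.8 ± 6.82, 32.8 ± 8.84, 42.4 ± 5.00, 17.8 ± 2.55, 25.0 ± 7.19 and 22.9 ± 6.25 CPM at the same 6 times. The highest mean was at ZT10 and the lowest at ZT14, the next time sampled. The fitted peak lay at ZT7.26 with a peak-to-trough change of 0.78 (adjusted p = 0.00717). Pdgfra peaked at ZT8.76 (0.60, adjusted p = 0.000293) and Cspg4 at ZT10.4 (0.57, adjusted p = 0.000229). Olig2 had a fitted change of 0.01 (adjusted p = 0.997).

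Within HFD no rhythm of these 3 genes passed. In HFD light-feeding Gpr17 averaged between 35.7 ± 3.61 CPM at ZT10 and 42.3 ± 6.31 CPM at ZT2. The rhythm differed between HFD and chow with light-feeding for Gpr17 (size of the difference 0.91 on the log2 scale from peak to trough, adjusted p = 0.0024 in edgeR), Pdgfra (0.77, adjusted p = 0.00263) and Cspg4 (0.51, adjusted p = 0.0417), 3 of 6 members where 9.02% of all genes passed. Over runs of title numbers 0 of 6 passed, with sizes of 0.94, 0.78 and 0.52 for these 3 genes (adjusted p = 0.66, 0.68 and 0.691). That fit had 12 HFD and 13 chow runs, and the share of all genes passing in it is not given here. With dark-feeding 0 of 6 and 0% of all genes passed, the lowest adjusted p being 0.0646 for Pdgfra. There edgeR had 2327 genes and 3 members at an unadjusted p under 0.05, and DESeq2 called 192 genes and 1 member. With ad libitum feeding 0 of 6 and 0% of all genes passed, with 2316 genes and 0 members at an unadjusted p under 0.05 and 42 genes and 0 members by DESeq2. The single rhythm within HFD ad libitum was that of Olig1, with a change of 0.32 peaking at ZT19.4 (adjusted p = 0.038). It was not called with FPKM values, with time as a factor or over runs.

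The size of the diet difference varied over the times sampled. The Gpr17 difference was largest at ZT6 with light-feeding and ZT14 with dark-feeding, picked here from 6 times. It was smallest at ZT22 and ZT10. With light-feeding at ZT6, Gpr17 ran from 34.0 to 43.1 CPM in 6 HFD libraries, against 15.8 to 23.9 CPM in 5 chow libraries, without overlap. The share of all genes without overlap is not given here. All 5 of these chow libraries had title numbers from 51 to 100, the band of the lowest chow Gpr17 median (22.3 CPM). At ZT22 it averaged 40.4 ± 7.34 CPM in HFD libraries and 39.9 ± 11.0 CPM in chow libraries. With dark-feeding at ZT14, Gpr17 ran from 37.0 to 42.6 CPM in 5 HFD libraries, against 14.0 to 21.2 CPM in 5 chow libraries. Of those 5 chow libraries, 3 had title numbers in that band. At ZT10 it averaged 39.2 ± 6.97 CPM in HFD libraries and 42.4 ± 5.00 CPM in chow libraries. For Pdgfra with light-feeding at ZT6 the means were 121 ± 12.5 CPM in HFD libraries and 65.3 ± 8.28 CPM in chow libraries.

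**Figure D3:**
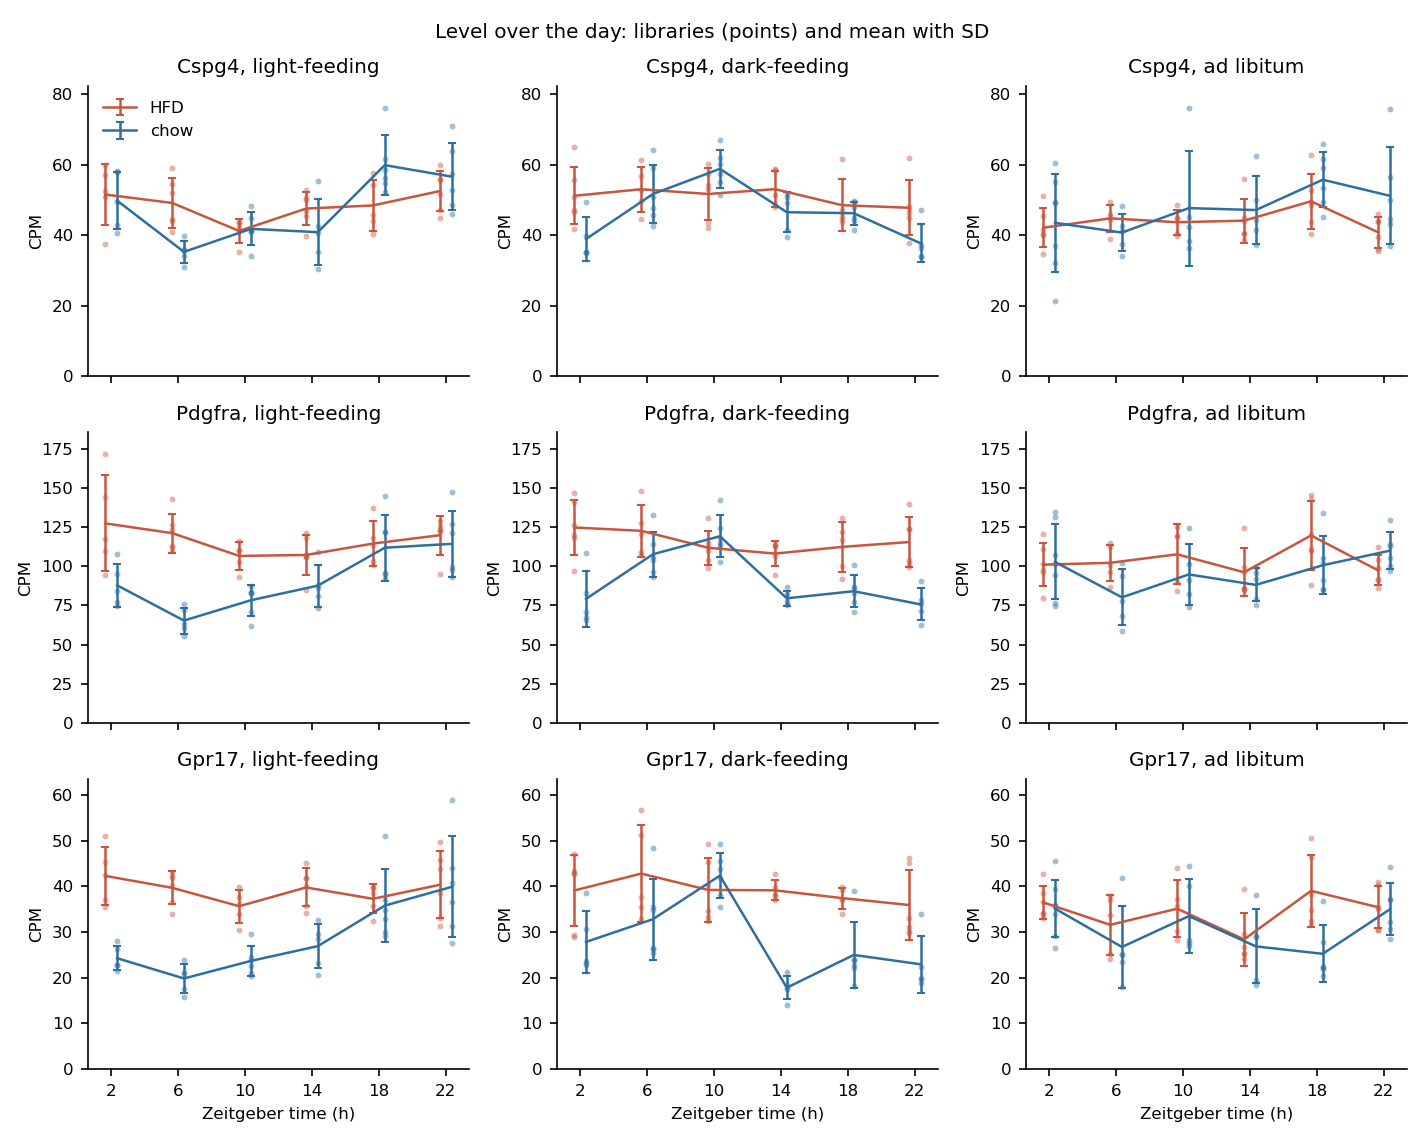
Level in CPM (vertical axes, from 0) of Cspg4, Pdgfra and Gpr17 (rows) against Zeitgeber time in hours (horizontal axes) for the 3 feeding schedules (columns); points are libraries, lines join means with SD bars, HFD in red and chow in blue. The HFD means of Gpr17 stay between 28.4 and 42.8 CPM, while its lowest chow means are 19.8 CPM at ZT6 with light-feeding and 17.8 CPM at ZT14 with dark-feeding.

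Other lists also had rhythms on these schedules. In chow light-feeding 9 of 17 other precursor genes, 10 of 13 mature oligodendrocyte genes and 7 of 12 astrocyte genes passed, and in chow dark-feeding 6, 6 and 0 did. Luzp2 and Matn4, both precursor genes, peaked at ZT18.3 and ZT20.6 in chow light-feeding and at ZT10.2 and ZT9.71 in chow dark-feeding. Of 12 clock genes 8 passed in chow light-feeding and 10 in chow dark-feeding.

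Time and library number coincided in chow light-feeding. All 16 of its libraries at ZT2, ZT6 and ZT10 had title numbers from 51 to 100, and none of its 17 libraries at ZT14, ZT18 and ZT22 did. Over the whole chow series, Gpr17 had a median of 30.7 CPM at title numbers 1 to 50 (n = 24), 22.3 CPM at 51 to 100 (n = 35) and 32.6 CPM at 101 to 150 (n = 39). Pdgfra had medians of 101, 75.9 and 99.3 CPM in these bands, and Vcan 140, 129 and 145 CPM. Cspg4 had medians of 55.0, 41.5 and 44.1 CPM. Of these bands the middle one was lowest for these 4 genes, and it held 16 of 33 light-feeding and 13 of 33 dark-feeding libraries, against 6 of 34 ad libitum libraries. The 2 chow libraries numbered above 150 had a lower Cspg4 median than that band, 39.6 CPM, and higher medians of Gpr17, Pdgfra and Vcan. In chow light-feeding a curve of title number in the model left 0 of 6 rhythms past the threshold (changes of 0.31 for Gpr17, 0.28 for Pdgfra and 0.13 for Cspg4), the share of all genes under that curve not being given here. In chow dark-feeding it left those of Cspg4 (0.62, adjusted p = 0.00572) and Pdgfra (0.52, adjusted p = 0.00801) past it, and that of Gpr17 was 0.69 (adjusted p = 0.0553).

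The diet difference was also read within these bands. Among libraries numbered 51 to 100, the Gpr17 median was 38.1 CPM in HFD dark-feeding (n = 20) and 19.9 CPM in chow dark-feeding (n = 13). Among those numbered 101 to 150 it was 35.1 CPM in HFD dark-feeding (n = 10) and 38.8 CPM in chow dark-feeding (n = 10), the opposite order. With light-feeding it was 40.3 CPM in HFD libraries (n = 17) and 22.8 CPM in chow libraries (n = 16) at 51 to 100, and 37.4 CPM in HFD libraries (n = 16) and 32.6 CPM in chow libraries (n = 9) at 101 to 150. Pdgfra medians at 101 to 150 were 119 CPM in HFD dark-feeding and 108 CPM in chow dark-feeding, and 112 CPM in HFD light-feeding and 97.9 CPM in chow light-feeding. A given number need not mark the same day or handling in both series, and the bands hold different times. With runs as the unit, Gpr17 differed by diet with dark-feeding (0.46, adjusted p = 0.0112 in edgeR) and light-feeding (0.49, adjusted p = 0.00124), and so did Pdgfra and Vcan. Every run lies within a diet's own series, so the test over runs cannot tell diet from series. It also treats neighbouring runs as independent, although their levels tended to be similar in the chow series.

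**Figure D4:**
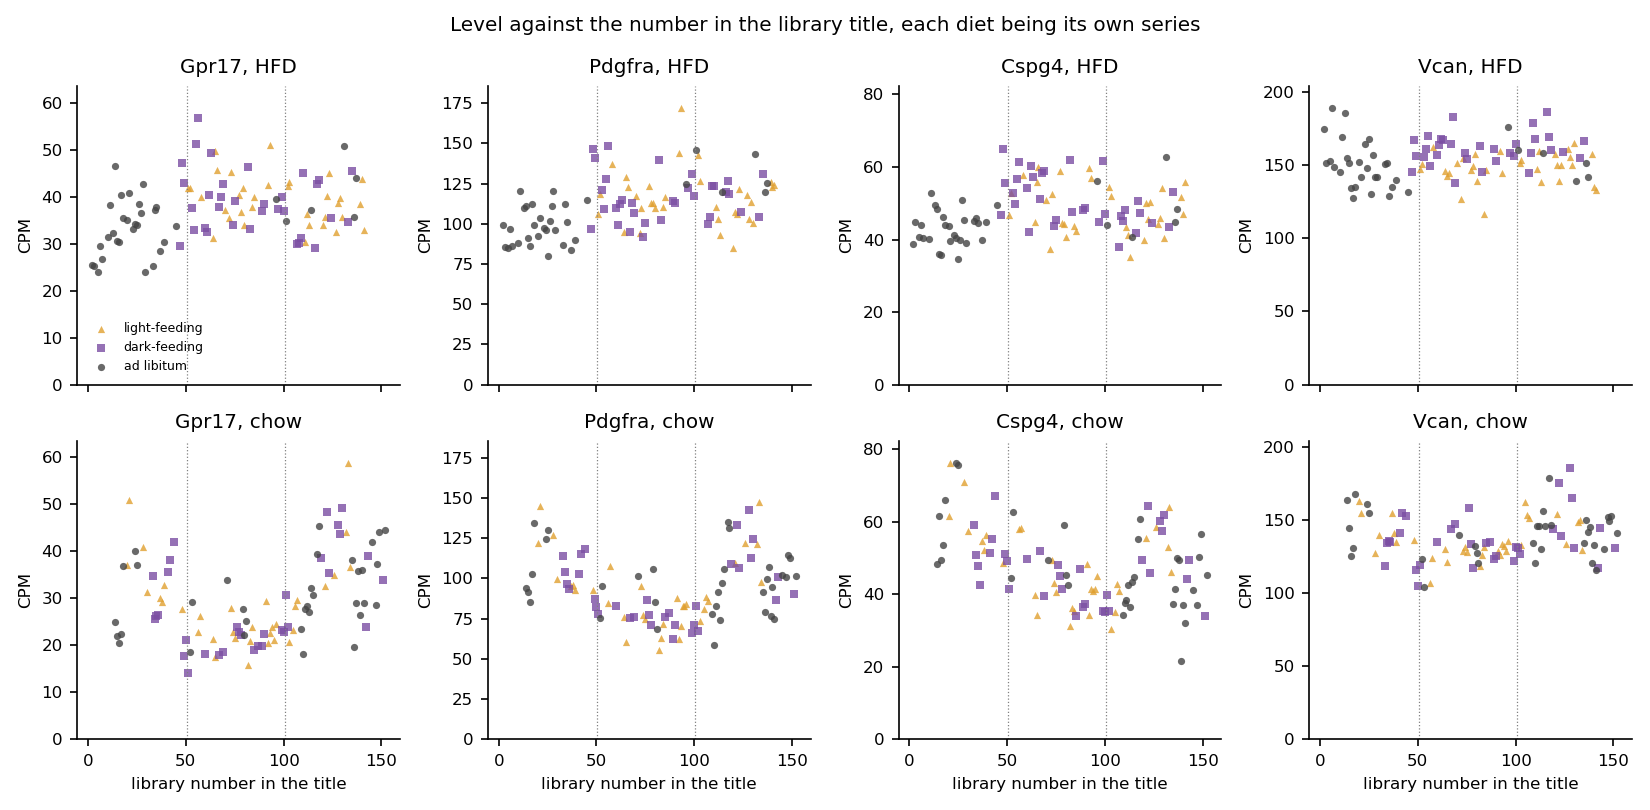
Level in CPM (vertical axes, from 0) of Gpr17, Pdgfra, Cspg4 and Vcan against the library number in the title, for HFD above and chow below, with a marker for each feeding schedule; dotted lines part the bands at 50 and 100. In the chow series Gpr17 and Pdgfra lie lowest between 51 and 100, with medians of 22.3 and 75.9 CPM.

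Neighbouring runs tended to have similar levels in the chow series. The log2 mean CPM of a run was correlated with that of the next run, with group and time differences left in. The values were 0.70 for Pdgfra, 0.68 for Cspg4, 0.63 for Gpr17, 0.47 for Vcan, 0.40 for Olig2 and 0.40 for Olig1 over 42 pairs of neighbours, which share the series. They cannot separate title order from group and time. In the HFD series the values were 0.38, 0.37, 0.33, 0.04, 0.16 and -0.05 over 35 pairs. Runs held 53.5% of the variance of Pdgfra within group and time and 38.3% of that of Vcan, where the median gene had 41.4% and libraries with no structure would give 26.2%.

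The promoters of Pdgfra and Cspg4 are shown because their rhythms passed in both restricted chow groups and, in chow dark-feeding, also with the curve of title number. Neither rhythm passed with the curve in chow light-feeding, nor over runs in either group. RefSeq gives 1 window for each on assembly GRCr8, from 250 bases before to 50 after the annotated start. That of Pdgfra is chr14:33408467-33408766 on the minus strand, and that of Cspg4 is chr8:66160692-66160991 on the plus strand. Both are printed 5′ to 3′ on the strand of the gene, in lower case, with motif matches in capitals.
Pdgfra: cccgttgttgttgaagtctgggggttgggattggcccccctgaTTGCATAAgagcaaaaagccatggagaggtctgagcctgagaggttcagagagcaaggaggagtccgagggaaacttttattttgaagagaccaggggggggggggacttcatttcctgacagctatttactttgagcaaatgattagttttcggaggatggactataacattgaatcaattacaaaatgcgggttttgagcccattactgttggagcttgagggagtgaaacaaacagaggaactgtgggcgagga
Cspg4: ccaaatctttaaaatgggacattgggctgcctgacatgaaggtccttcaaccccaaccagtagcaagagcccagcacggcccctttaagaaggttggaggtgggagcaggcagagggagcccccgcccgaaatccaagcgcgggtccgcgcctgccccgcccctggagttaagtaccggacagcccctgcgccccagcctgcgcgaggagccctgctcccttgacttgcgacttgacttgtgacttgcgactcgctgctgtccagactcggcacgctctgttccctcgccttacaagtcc
The motifs searched on both strands were CACGTG, the E-box of CLOCK and BMAL1, and TTATGNAA, a form of the D-box of DBP and its relatives. The D-box form was found once in the Pdgfra window, on the opposite strand, beginning 207 bases before the start, and overlapped no other match. Of 33469 promoter windows of this length, 3.66% hold it and 6.42% hold CACGTG, which was in neither window. Promoter windows were found for 5 of the 6 genes, and the other 3 held neither motif. A match is a run of letters, not a measured site.

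Across libraries most of the 6 genes varied together, with Vcan as the exception. With group and time means removed, Olig1 and Olig2, which lie side by side in mammalian genomes, had a Pearson's r of 0.89 and a Spearman's rho of 0.86 over 200 libraries. Pdgfra correlated with Gpr17 at r = 0.76 (rho 0.76) and with Cspg4 at r = 0.73 (rho 0.71). Vcan correlated with Olig1 at r = -0.06 (rho -0.09, permutation p = 0.46, adjusted 0.49) and with Olig2 at r = 0.00 (rho -0.03, permutation p = 1). Of 15 pairs, 13 passed after adjustment, the adjusted permutation p being 1.7e-05 for the 3 pairs named first, from 1e-05, the smallest that 100000 permutations within group and time can give. Without the 2 farthest libraries these r were 0.88, 0.75 and 0.72. They were 0.87, 0.69 and 0.70 in the HFD series and 0.90, 0.81 and 0.75 in the chow series (n = 100 each). Vcan had its highest r with Pdgfra (0.35, rho 0.33). Its r with Olig1 was -0.30 in the HFD series and 0.06 in the chow series, a difference that was not tested. Libraries of the same run deviated alike within group and time, which these permutations do not keep, so their p-values tend to be too small.

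The members were also set against lists of cell type markers. Pdgfra had its highest correlation with the other precursor genes (r = 0.80, rho 0.79), as did Gpr17 (r = 0.70, rho 0.71) and Cspg4 (r = 0.70, rho 0.67). Olig1 and Olig2 had theirs with the mature oligodendrocyte genes (r = 0.81 and 0.80, rho 0.78 and 0.76). The values of Olig1 and Olig2 with newly formed oligodendrocyte genes were close to these (r = 0.77 and 0.78), and differences between correlations were not tested. All 5 highest values had an adjusted permutation p of 2.5e-05 over 54 relations, and without the 2 farthest libraries they were 0.80, 0.70, 0.68, 0.78 and 0.78 in the same order. Gpr17 ran opposite to astrocytes (r = -0.38, rho -0.33, adjusted permutation p = 7e-05) and to pericytes (r = -0.32, rho -0.23), while Vcan had r = 0.35 (rho 0.34) with the other precursor genes and 0.13 (rho 0.10, adjusted permutation p = 0.16 for r) with the mature oligodendrocyte genes. With the microglia list r was 0.53 for Olig1, 0.51 for Cspg4, 0.44 for Olig2 and 0.32 for Pdgfra (rho 0.38, 0.41, 0.32 and 0.29). The Cspg4 value was 0.24 in the HFD series and 0.64 in the chow series. With the neuron list r was -0.53 for Olig2, -0.50 for Olig1 and -0.46 for Cspg4 (rho -0.45, -0.44 and -0.41). Cspg4 had r = 0.21 with both pericytes (rho 0.15, adjusted permutation p = 0.019 for r and 0.1 for rho) and meningeal fibroblasts (rho 0.10, adjusted permutation p = 0.04 for r and 0.27 for rho). For Pdgfra these were -0.13 and -0.10 (rho -0.11 and -0.12, adjusted permutation p = 0.18 and 0.31 for r). Library composition and depth are shared by all these values.

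**Figure D5:**
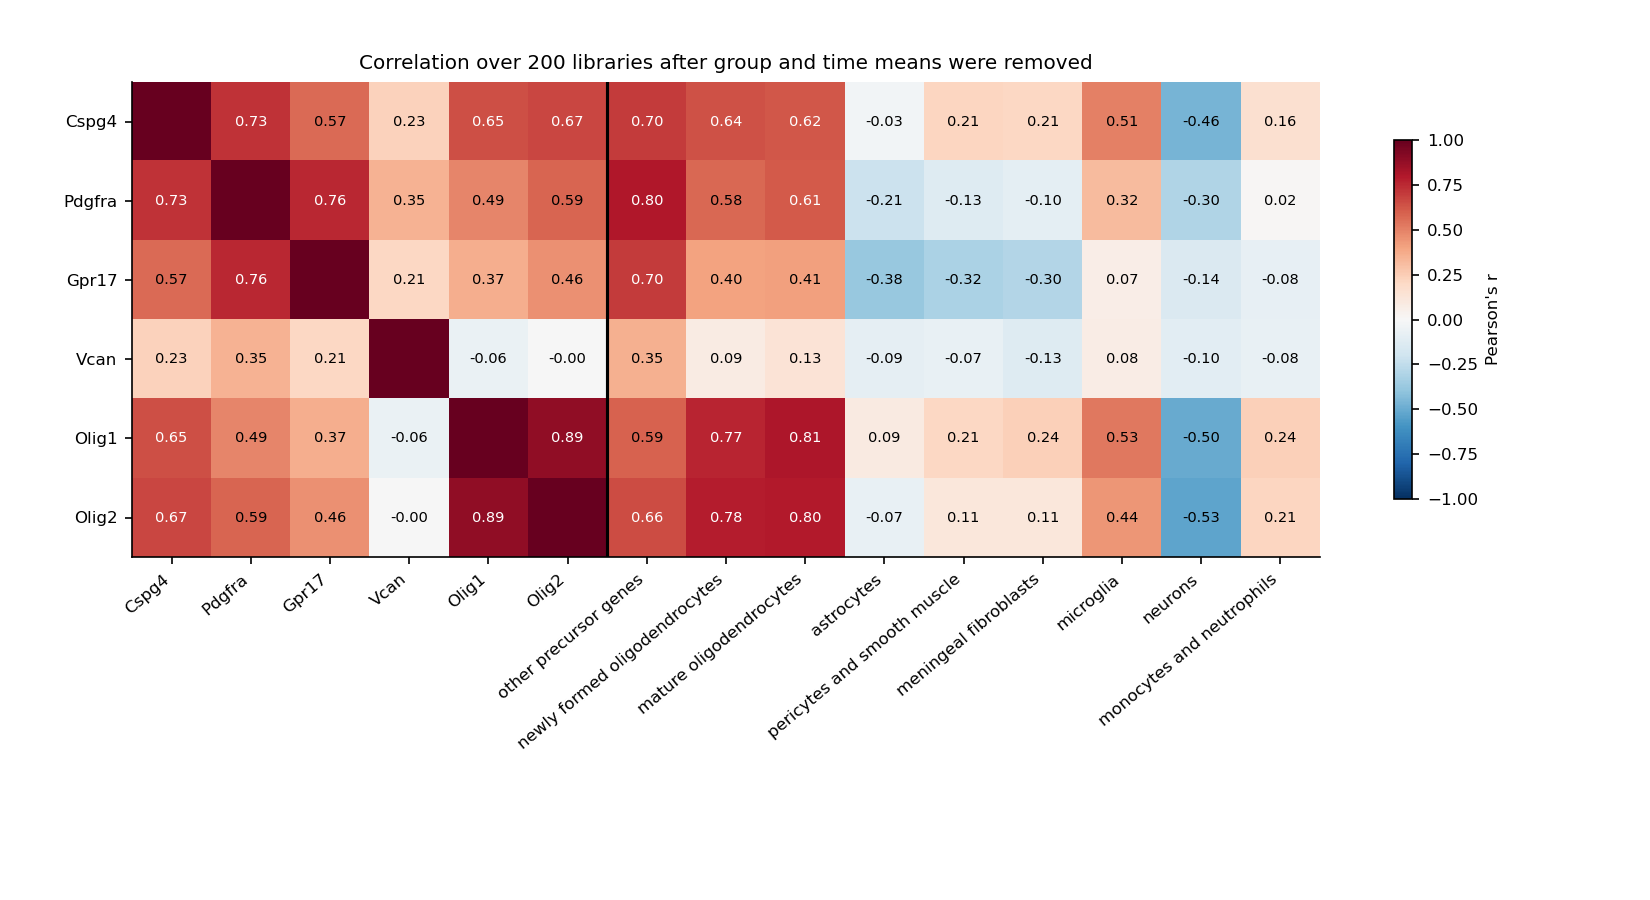
Pearson's r over 200 libraries, after group and time means were removed, between each of the 6 genes (rows) and, left to right, the 6 genes and the mean log2 CPM of 9 lists of cell type markers (columns). Red cells are positive and blue negative; Olig1 with Olig2 has the highest value, 0.89, and the Vcan row is pale.

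By the same measure over 11349 genes with a mean of at least 5 CPM, the genes most like each member were named. For Cspg4 they were Sulf2 (r = 0.79), Pdgfra (0.73) and Pmel (0.72). For Pdgfra they were Gpr17 (0.76), Susd5 (0.76) and Lrrn1 (0.74), and for Gpr17 they were Pdgfra (0.76), Syt11 (0.71) and Lrrn1 (0.65). For Olig1 they were Olig2 (0.89), Cldn11 (0.88) and Pllp (0.86), and for Olig2 they were Olig1 (0.89), Cldn11 (0.85) and Mettl7a (0.85). For Vcan the highest values were lower, Atm (0.59), Srek1 (0.57) and Ptprz1 (0.57). The median r over all genes lay between -0.03 and 0.01 for each member.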

How the data were processed

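RNA was extracted from cells labelled microglia, messenger RNA was enriched and stranded libraries were sequenced, per the labels' protocols. The submitters' processing notes name the genome build Rnor_6.0; which aligner and counter were run is not given in the sources used here. Files deposited by the authors held expected counts for 20361 genes, with 8.03% of entries not whole, and FPKM values for 17611 genes. Expected counts were rounded, where the design had assumed raw counts. Columns of other samples numbered 0. Of 19900 library pairs 0 were identical, and the lowest chi-square per gene was 2.31.

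In R 4.3.3 the quasi-likelihood test of edgeR 4.0.16 was run with TMM scaling on the 14393 genes past edgeR's filter, with Benjamini-Hochberg adjustment over all of them and a threshold of 0.05. Time entered group comparisons as a factor, and rhythms were a cosine and sine of 24 h. CPM used TMM-scaled library sizes. Alternatives were DESeq2 1.42.0 and its size factors, no filter, limma 3.58.1 on log2(FPKM + 0.1) or log2(FPKM + 1) for genes with a mean of at least 0.1 FPKM, 79 runs of neighbouring title numbers as units, all 6 groups in 1 fit, a title-number spline of 3 degrees of freedom, each time left out, time as a factor for rhythms, the 6 libraries that stand apart (5 median absolute deviations) left out, and length offsets; the last 2 were chosen after seeing the data. Correlations (Python 3.11.15) used log2 CPM, prior count 2. Named genes were all 6 members, up to 3 genes of smallest adjusted p per list and comparison, and the 3 most like genes per member. The fits were tested on simulated data. The members and lists were chosen with earlier results of these data known.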

Additional observations from a re-analysis of the deposited data

Results flagged for a closer look

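Of 216 sets of libraries of 1 member, group and time, 18 had 1 library far from the rest by Dixon's criterion; chance gives about 1 in 20. At ZT14 in HFD ad libitum the same library, title number 96, was high for Cspg4 (56.0 CPM, others 38.8 to 44.8), Pdgfra (125 CPM, others 84.8 to 99.5) and Gpr17 (39.4 CPM, others 24.0 to 29.5); it was the single HFD ad libitum library numbered 51 to 100. The library of chow ad libitum ZT2 numbered 118 was high for Olig1 (164 CPM, others 57.5 to 97.7) and Olig2 (97.3 CPM, others 32.9 to 58.2), and that of chow dark-feeding ZT22 numbered 87 for Cspg4 (47.0 CPM) and Olig1 (139 CPM).

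The other distant values were as follows. Cspg4 was 61.7 CPM in HFD dark-feeding at ZT18, 35.3 CPM in HFD light-feeding at ZT10 and 76.2 CPM in chow ad libitum at ZT10. Pdgfra was 95.0 CPM in HFD light-feeding at ZT22, and Vcan 175 CPM in chow dark-feeding at ZT6. Olig1 was 141 CPM in HFD ad libitum at ZT6, in 1 of the 6 libraries that stand apart. Olig2 was 97.5 CPM in HFD dark-feeding at ZT6 and 44.6 CPM in chow dark-feeding at ZT14. Gpr17 was 39.0 CPM at ZT18 and 33.9 CPM at ZT22 in chow dark-feeding, and 51.0 CPM at ZT18 in chow light-feeding.

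Effects that differed between groups by a test of the difference were the diet effect on Pdgfra with light-feeding against ad libitum (0.25 on the log2 scale) and the daily rhythm with light-feeding in HFD against chow, for Cspg4 (0.51), Pdgfra (0.77) and Gpr17 (0.91). Over runs of neighbouring title numbers none of these 4 passed (adjusted p = 0.842 for the diet effect on Pdgfra, and 0.691, 0.68 and 0.66 for the rhythms), and with length offsets the diet effect on Pdgfra had an adjusted p of 0.0604. The share of all genes passing over runs is not given here.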

How the results depend on the processing

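No paired analysis was possible because the labels give no replicate numbers shared between groups. Counts of members called kept within 1.5 times of the reported count in 197 of 253 recomputed counts, and the others are given here. The cause was not tested, and the shares of all genes under these alternatives are not given beside them. For HFD against chow ad libitum (1 reported), DESeq2 called 2, and 0 were called with log2(FPKM + 0.1), log2(FPKM + 1), runs, or without ZT2, ZT14 or ZT18. For HFD dark-feeding against HFD ad libitum (3), 1 was called with either FPKM pseudocount, with length offsets and without ZT2, ZT6 or ZT22, and 0 with runs, all 6 groups or the title spline. For HFD light-feeding against HFD ad libitum (3), 1 was called without ZT2 or ZT22, and 0 with runs, all 6 groups, the title spline or without ZT6 or ZT14. For HFD light-feeding against HFD dark-feeding (1), 0 were called with no filter, either FPKM pseudocount, runs, all 6 groups, the title spline, length offsets or without ZT6, ZT10, ZT14 or ZT22. For the diet by dark-feeding interaction (0), 1 was called without ZT10. For the diet by light-feeding interaction (1), 0 were called with no filter, log2(FPKM + 0.1), runs, all 6 groups, length offsets or without ZT2, ZT6 or ZT10, and 2 with DESeq2, without ZT18 or without the 6 libraries that stand apart. For rhythms in HFD ad libitum (1), 0 were called with either FPKM pseudocount, runs or time as a factor. With runs 0 were called for rhythms in chow dark-feeding (3) and chow light-feeding (6) and for their difference by diet with light-feeding (3), and with the title spline 0 in chow light-feeding. For the rhythm difference with dark-feeding (0), DESeq2 called 1 and time as a factor 3. The values that reversed were Cspg4 (-0.0598), Pdgfra (-0.150) and Gpr17 (-0.0849) for HFD light-feeding against HFD ad libitum with the title spline. Of the other single values 1250 kept their side of the threshold, and those of group comparisons and interactions among them also kept their direction. For rhythms and rhythm differences only the call was compared, not the peak time. Another 105 lost the threshold, 14 gained it and 68 uncalled ones changed sign. All 6 members had counts of at least 98 in every library, so depth set no floor here.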
